A study of Mus musculus with 7 samples.

Results

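The urea cycle and glutamine genes of the mouse liver were followed in ATAC-seq data, in which a transposase inserts sequencing adapters where DNA is exposed, so that reads pile up over accessible chromatin. The members are Cps1, Otc, Ass1, Asl, Arg1, Nags, Glul, Gls2 and Rhbg. Their regions were the rows of the count table that overlapped the gene body of a member or the 10000 bp on either side of it (GENCODE M21, GRCm38), and 95 of 55680 consensus regions met this rule. Cps1 had 38 regions, Ass1 20, Asl 7, Gls2 7, Arg1 6, Nags 5, Glul 5, Otc 4 and Rhbg 3, and no region belonged to more than 1 member.

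The libraries came from whole liver tissue of male C57BL/6N mice, with no treatment named, 3 samples at 3 months (young) and 4 samples at 18 months (aged). The design text of the series counts 3 aged animals, 1 of which gave samples of 2 liver lobules, without telling which samples share it, while the study's methods speak of 4 aged biological replicates. Counts in regions summed to between 4474652 and 25461110 per library. Values are CPM, counts scaled to a common library size after TMM normalization, and p-values are from edgeR's quasi-likelihood test, adjusted by Benjamini-Hochberg over all 55680 regions. The promoter region of a gene was the strongest region that overlapped the 200 bp on either side of one of its transcription start sites (TSS).

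The urea cycle is the route by which hepatocytes turn ammonia into urea. Carbamoyl phosphate synthetase 1 (Cps1), which needs the activator made by N-acetylglutamate synthase (Nags), and ornithine transcarbamylase (Otc) act in the mitochondrion. Argininosuccinate synthetase (Ass1), argininosuccinate lyase (Asl) and arginase 1 (Arg1) complete the cycle in the cytosol. Liver glutaminase (Gls2) releases ammonia from glutamine close to the portal vein, where the urea cycle enzymes are also most abundant. Glutamine synthetase (Glul) and the ammonia transporter Rhbg mark the hepatocytes around the central vein, which take up the ammonia that passed the cycle.

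Upstream sequences were at hand in the RefSeq promoter table (GRCm38.p6) for 4 of the 9 members, Otc, Ass1, Nags and Glul. They are printed to show how much the promoters in the group differ in base composition. Each runs 5′ to 3′ on the plus strand and ends at the base before the RefSeq start, except that of Ass1, which ends before the earlier GENCODE start. Capitals mark matches to the motifs named after the sequences.
Otc, chrX:10252055-10252304: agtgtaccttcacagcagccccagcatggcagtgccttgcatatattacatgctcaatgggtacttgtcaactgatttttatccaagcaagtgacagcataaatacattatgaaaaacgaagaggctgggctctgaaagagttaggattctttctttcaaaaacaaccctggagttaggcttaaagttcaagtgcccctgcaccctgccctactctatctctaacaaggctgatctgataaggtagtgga
Ass1, chr2:31470020-31470206: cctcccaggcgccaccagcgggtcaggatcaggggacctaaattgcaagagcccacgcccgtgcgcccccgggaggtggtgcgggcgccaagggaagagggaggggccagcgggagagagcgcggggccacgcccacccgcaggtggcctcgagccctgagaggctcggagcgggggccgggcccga
Nags, chr11:102145263-102145512: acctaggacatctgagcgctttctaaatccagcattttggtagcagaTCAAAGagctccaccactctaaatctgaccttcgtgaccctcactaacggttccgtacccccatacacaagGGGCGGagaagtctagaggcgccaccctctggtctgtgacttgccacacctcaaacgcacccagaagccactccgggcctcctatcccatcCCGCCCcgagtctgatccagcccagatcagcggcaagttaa
Glul, chr1:153899679-153899928: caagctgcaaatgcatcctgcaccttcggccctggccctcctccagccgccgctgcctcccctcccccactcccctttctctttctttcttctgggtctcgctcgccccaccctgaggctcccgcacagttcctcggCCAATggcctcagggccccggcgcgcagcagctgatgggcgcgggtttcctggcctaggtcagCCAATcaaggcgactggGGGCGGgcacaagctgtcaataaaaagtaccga
The GC content was 43.6% for Otc, 75.4% for Ass1, 55.6% for Nags and 64.8% for Glul. Matches were sought on both strands for 11 motifs, namely TATAAA (the core promoter element read by TBP), CCAAT (bound by NF-Y), GGGCGG (GC box), TTGCNNAA (C/EBP), TGACGTCA (CRE) and TGACG (CRE core, which is also inside the CRE), GTTAAT (HNF1 core), CAAAGTCCA (HNF4), TGTTTAC (FOXA), CTTTGA (TCF/LEF) and TGTTCT (glucocorticoid receptor core). The Glul window held 2 CCAAT boxes, 113 and 50 bases before the start, and a GC box 33 bases before it. The Nags window held 2 GC boxes and a CTTTGA on the minus strand. Among the 32851 promoters of the table, 33.8% held a CCAAT, 32.7% a GC box and 13.8% a CTTTGA in the same window. The Otc and Ass1 windows held none of the 11 sets of letters, which says nothing about the factors.

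At the promoters, Cps1, Otc, Ass1, Asl, Arg1, Nags and Gls2 had higher mean CPM in aged liver, and Glul and Rhbg had lower mean CPM. None of these 9 differences passed an adjusted p of 0.05 in the main edgeR fit, with age as the sole term. Among all 15422 promoter regions, 4.48% were called higher and 2.06% lower in aged liver. Without adjustment 4 of the 9 had a p under 0.05, as did 32.1% of all promoter regions. DESeq2, the tool that the study used, called 2 of the 9, Cps1 and Gls2, both higher, where it called 12.2% of all promoter regions in either direction, 1544 of them higher and 343 lower. Every aged sample lay above every young one at 3 of the 9, Otc, Nags and Gls2, which was so at 20.4% of all promoter regions, and at none of the 9 did every aged sample lie below every young one, against 8.88%. Their median was 0.27 on the log2 scale and that of all promoter regions 0.09. Over all 12 promoter regions of the members, of which Ass1 has 3 and Asl 2, it was 0.14. With loess offsets on mean abundance, which remove a trend with region strength in each library, it was 0.016 for the 9 and −0.043 for the 12.

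**Figure D1:**
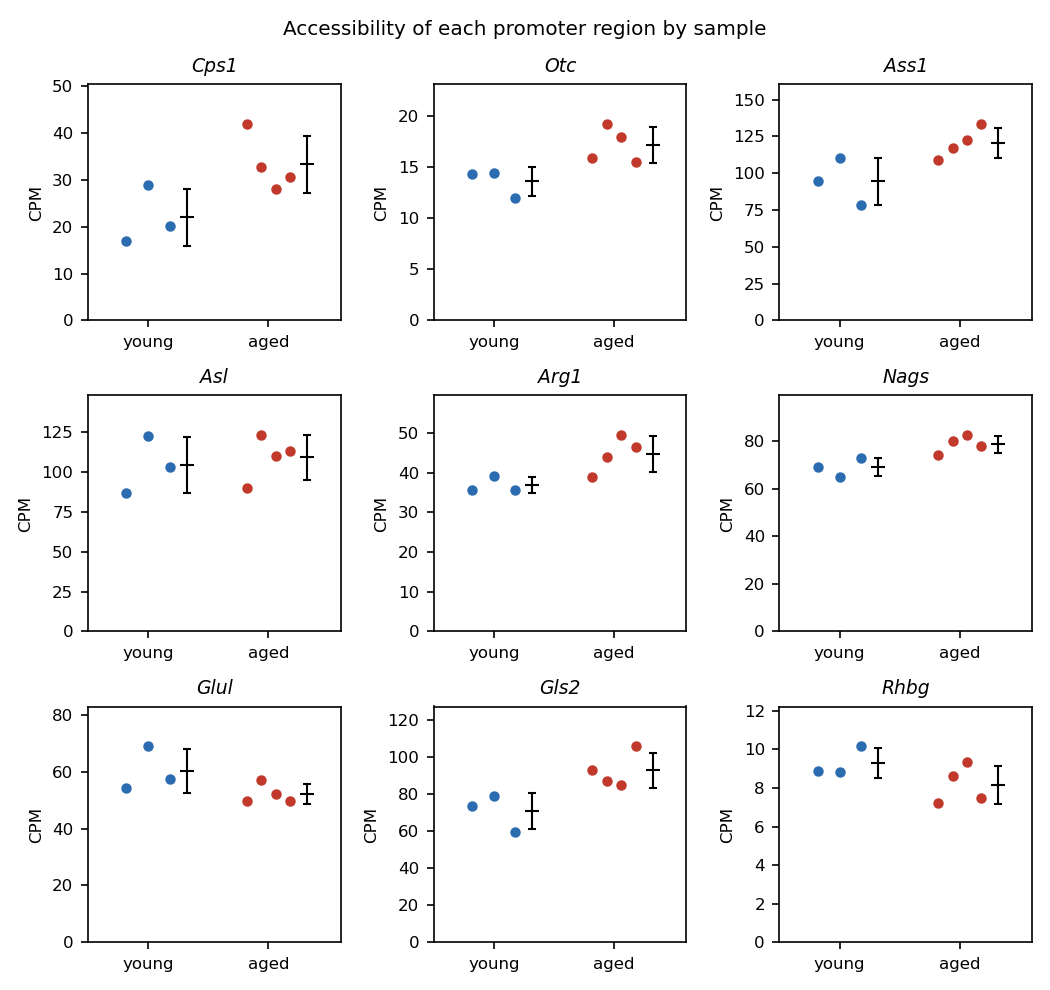
CPM of the promoter region of each of the 9 genes in the 3 young (blue) and 4 aged (red) samples, on linear axes that start at 0, with black bars for the mean ± SD. Every aged point lies above every young point in the panels of Otc, Nags and Gls2, and the Glul and Rhbg panels have the lower mean in aged liver.

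The Cps1 promoter region (chr1:67122704-67123652) held 16.9, 28.8 and 20.2 CPM in the young samples and 42.0, 32.8, 28.0 and 30.6 CPM in the aged samples. Only aged replicate 3 fell below the highest young sample. The log2 fold change of 0.59 (SE 0.19) was the largest of the 9 promoters, with an adjusted p of 0.075 in edgeR and 0.040 in DESeq2. The Nags promoter (chr11:102145207-102147151), which also holds a start of the gene Gm11586, held 69.2, 65.1 and 73.0 CPM in young and 74.2, 80.0, 82.6 and 78.0 CPM in aged liver. These groups did not overlap, but lay close together, and the log2 fold change was 0.19 (SE 0.10, adjusted p 0.28). The Otc promoter (chrX:10251986-10253810) held 14.4, 14.4 and 12.0 CPM in young and 15.9, 19.2, 18.0 and 15.5 CPM in aged samples, again without overlap. Its log2 fold change was 0.32 (SE 0.16, adjusted p 0.24).

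For the cytosolic enzymes, the Ass1 promoter (chr2:31469110-31471191) held 94.5, 110.5 and 78.3 CPM in young and 109.2, 116.9, 122.6 and 133.6 CPM in aged samples. Only aged replicate 1 lay within the young range. Its log2 fold change was 0.35 (SE 0.13, adjusted p 0.12). The regions at internal Ass1 start sites had smaller differences, 0.09 (SE 0.19, adjusted p 0.81) at chr2:31517167-31520371, which was nearly as strong, and 0.06 (SE 0.18, adjusted p 0.86) at chr2:31500343-31502035. The Arg1 promoter (chr10:24926880-24928396), which also holds the start of the unnamed gene Gm36172, held 35.6, 39.1 and 35.7 CPM in young and 38.9, 43.9, 49.5 and 46.5 CPM in aged liver. The groups overlapped in aged replicate 1, and the log2 fold change was 0.27 (SE 0.12, adjusted p 0.18). With 1000 bp on either side of a start site, an intronic region became the strongest, with 0.05 (adjusted p 0.91). Asl had the smallest promoter difference in the group. Its strongest promoter region (chr5:130021344-130024843), at a start site inside the gene, held 87.0, 122.6 and 103.3 CPM in young and 89.96, 123.2, 110.2 and 112.9 CPM in aged samples, so the groups overlapped almost fully. The difference was 0.06 on the log2 scale (SE 0.14, adjusted p 0.84), with a 95% interval from −0.21 to 0.33. The region over the outer Asl start (chr5:130029225-130029760), shared with Crcp, had a log2 fold change of 0.01 (SE 0.20).

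The Gls2 promoter (chr10:128193995-128195442) held 73.9, 79.1 and 59.9 CPM in young and 93.1, 86.9, 85.2 and 106.1 CPM in aged liver. The lowest aged sample was above the highest young one. Its log2 fold change was 0.38 (SE 0.13), with an adjusted p of 0.080 in edgeR and 0.047 in DESeq2. The Glul promoter (chr1:153899503-153901552), shared with starts of Teddm2 and Mir8114, held 54.2, 69.1 and 57.4 CPM in young and 49.7, 57.1, 52.1 and 49.5 CPM in aged liver. Aged replicate 2 lay inside the young range and the other aged samples lay below it. The difference was −0.22 on the log2 scale (SE 0.12, adjusted p 0.27), with a 95% interval from −0.45 to 0.01. It was −0.0999 without young replicate 2 and −0.45 with offsets on mean abundance. The Rhbg promoter (chr3:88254255-88254959) was weak, with 8.89, 8.84 and 10.2 CPM in young and 7.20, 8.63, 9.34 and 7.51 CPM in aged samples. These groups overlapped, and the log2 fold change was −0.20 (SE 0.20, adjusted p 0.57). It was −0.0817 with offsets on mean abundance, −0.124 without young replicate 3 and −0.314 with scaling to total counts.

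The strength of a region moved with its age difference over the whole table. With all regions ranked by mean log2 CPM, the weakest decile had a median change of −0.42 on the log2 scale and the strongest one of 0.28. Of the 9 member promoters, 5 were in the strongest decile, with log2 fold changes of 0.38 for Gls2, 0.35 for Ass1, 0.19 for Nags, 0.06 for Asl and −0.22 for Glul. With offsets fitted on mean abundance in place of plain TMM, the log2 fold change became 0.09 for Gls2, 0.02 for Ass1, −0.09 for Nags, −0.27 for Asl and −0.45 for Glul, none with an adjusted p under 0.05. In the same fit it was 0.48 for Cps1, 0.31 for Otc, 0.08 for Arg1 and −0.08 for Rhbg, again without passing the test. The part of region strength in the promoter differences was not tested further.

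Per kilobase of region, median accessibility over the 7 samples was highest at the promoters of Gls2 (58.9 CPM per kb) and Ass1 (53.1), followed by Nags (38.1), Asl (31.5), Cps1 (30.4), Glul (26.4), Arg1 (25.8), Rhbg (12.5) and Otc (8.51). The ranges of the samples overlapped between all neighbours in this order except Arg1 and Rhbg. The lowest Arg1 sample was at 23.5 CPM per kb and the highest Rhbg sample at 14.5. Otc lies on the X chromosome, of which male mice carry a single copy. The promoter was the member region of greatest mean CPM per kb for Cps1, Otc, Arg1, Glul, Gls2 and Rhbg. An upstream region took that place for Ass1 (chr2:31463258-31465266, 54.1 CPM per kb), Nags (chr11:102142447-102143245, 43.5) and Asl (chr5:130033626-130034389, 31.0), the last inside the neighbouring gene Crcp.

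Accessibility was not limited to promoters. Accessible regions covered 55.0% of the 50466 bp Ass1 body and 46.6% of the 108234 bp Cps1 body. Among the 5007 protein-coding genes of at least 50000 bp, these were the highest and the second highest share, against a median of 1.90% and a 95th percentile of 12.9%. Otc, with a body of 68720 bp, was covered to 3.89% and ranked at 1545 in the same list. Of the short members, Arg1 was covered to 67.7%, Nags to 41.3%, Gls2 to 26.9%, Glul to 23.8%, Asl to 19.6% and Rhbg to 6.23%. The median over all 21938 protein-coding genes was 2.62%. Part of an Ass1 intronic region (chr2:31504849-31507330) has a similar copy elsewhere on chromosome 2, with 93.3% identity over 65.3% of the region, so its counts are uncertain, and no other member region had a copy that covered at least 50% of it at 90% identity.

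Over all 95 member regions edgeR called 0 higher and 2 lower in aged liver, or 2.11% of them. Over all regions it called 2.44% higher and 3.30% lower, in either direction 5.74%. DESeq2 called 6 of the 95 higher (6.32%) and 2 lower (2.11%), against 4.96% and 3.47% of all regions. The 6 were 3 at Cps1, 2 at Ass1 and the Gls2 promoter. At an unadjusted p under 0.05, 13 of the 95 member regions were higher and 6 lower, as were 11.9% and 12.7% of all regions. Every aged sample exceeded every young one at 8 of 95 regions and fell below every young one at 6, where 10.2% and 11.6% of all regions did so.

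**Figure D2:**
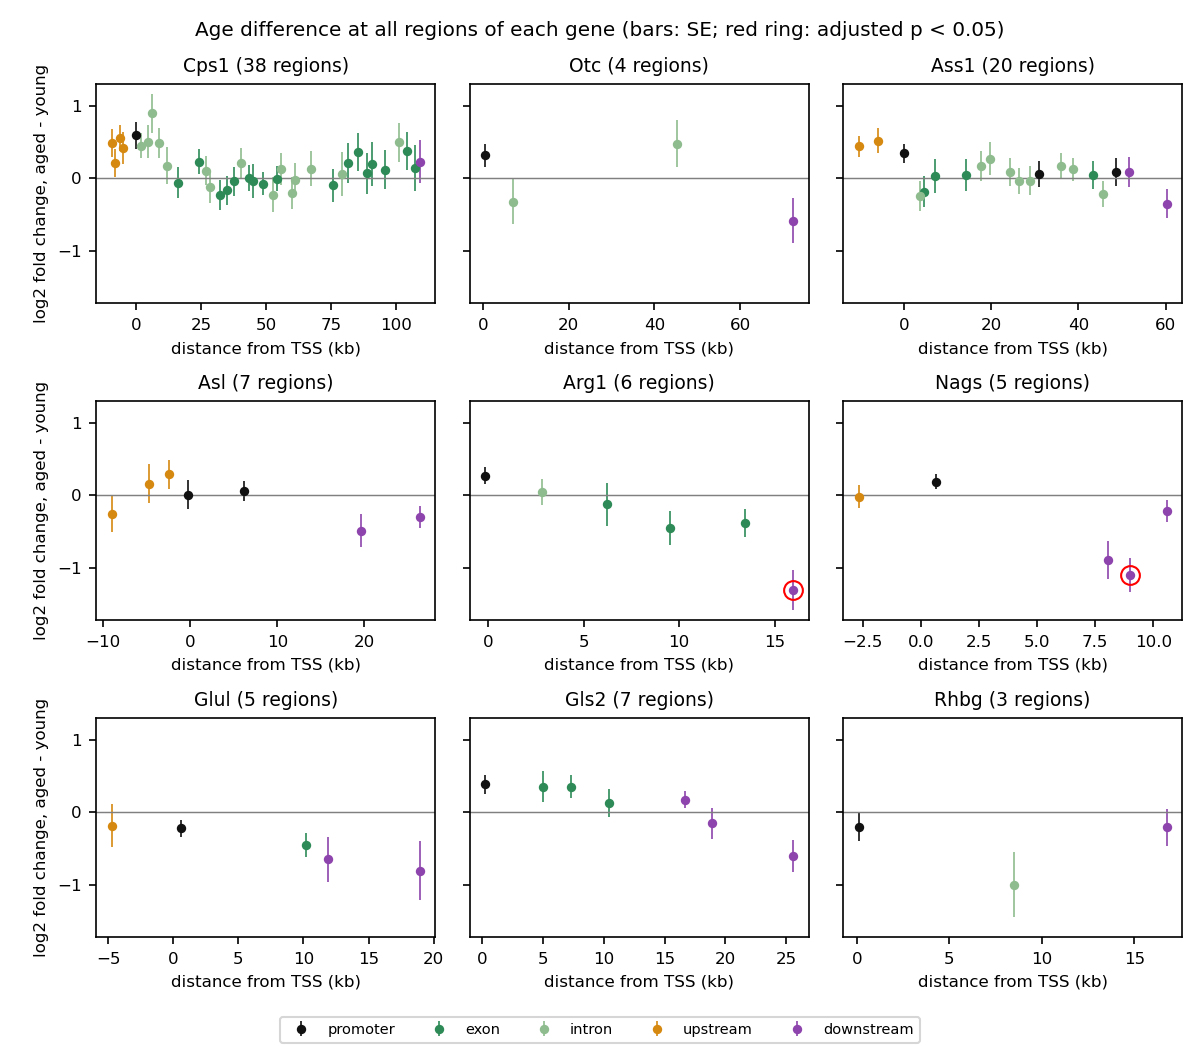
Log2 fold change (aged − young, with SE bars) of each of the 95 member regions against the distance of its midpoint from the TSS of the gene, coloured by place, with a red ring at an adjusted p under 0.05. The 2 ringed regions lie beyond the 3′ ends of Arg1 and Nags, and the regions of Cps1 close to the TSS all lie above 0.

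The 2 called regions were both in flanks, inside other genes. The first, chr10:24911245-24911784, lies 3437 bp past the 3′ end of Arg1 and in an intron of Med23, a subunit of the Mediator complex. It held 11.9, 12.5 and 9.37 CPM in young and 2.64, 5.10, 7.24 and 4.45 CPM in aged samples, from counts of at least 26 per library. All aged samples were below all young ones. Its log2 fold change was −1.30 (SE 0.28, adjusted p 0.020). The promoter region of Med23 held 33.1 to 34.3 CPM in young and 40.3 to 48.2 CPM in aged liver, which is 0.37 higher on the log2 scale (SE 0.11, adjusted p 0.065). The second, chr11:102154120-102154876, lies 4643 bp past the 3′ end of Nags, in Tmem101, which encodes a transmembrane protein, and reaches over a coding exon of that gene. It held 14.72, 8.995 and 14.96 CPM in young and 6.06, 4.32, 6.77 and 6.49 CPM in aged samples, again without overlap. Here the log2 fold change was −1.10 (SE 0.24, adjusted p 0.021). The region next to it (chr11:102153346-102153784) held 9.26, 5.75 and 6.74 CPM in young and 4.31, 2.75, 3.97 and 4.33 CPM in aged samples, with a log2 fold change of −0.88 and an adjusted p of 0.060. The Tmem101 promoter itself had a log2 fold change of −0.22 (SE 0.15, adjusted p 0.41).

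Both calls ended without young replicate 1 or without aged replicate 1, when the adjusted p was 0.079 and 0.062 for the Arg1 flank and 0.099 and 0.065 for the Nags flank. They also ended with offsets on mean abundance (0.068 and 0.071). The Arg1 call further ended without young replicate 2 (0.085), and the Nags call without young replicate 3 (0.057) or aged replicate 3 (0.057), and with aged replicates 1 and 3 summed (0.052). Across these fits the log2 fold changes lay between −1.25 and −0.96.

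**Figure D3:**
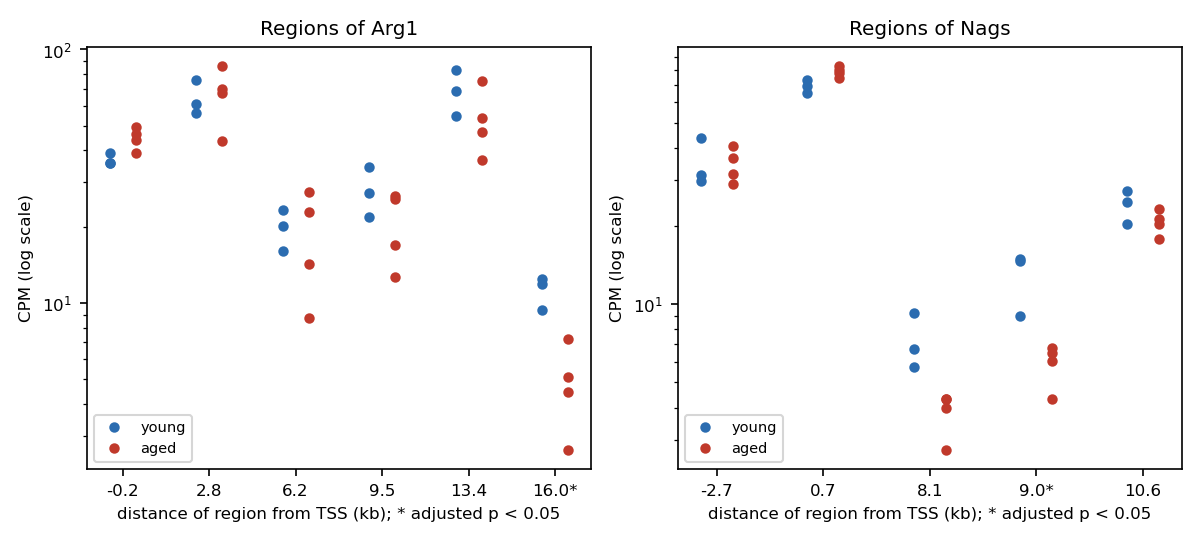
CPM on a log scale at each region of Arg1 (6 regions) and Nags (5 regions), ordered by distance from the TSS in kb, in young (blue) and aged (red) samples, with a star at an adjusted p under 0.05. At the starred regions all 4 aged samples lie below all 3 young samples, while the Nags promoter has all aged samples above all young ones.

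The sequences of the called regions and of the member region with the largest log2 fold change, in the first intron of Cps1, are given as the central 300 bases of each (GRCm38, plus strand), with the same motifs in capitals.
Arg1 flank, chr10:24911364-24911663: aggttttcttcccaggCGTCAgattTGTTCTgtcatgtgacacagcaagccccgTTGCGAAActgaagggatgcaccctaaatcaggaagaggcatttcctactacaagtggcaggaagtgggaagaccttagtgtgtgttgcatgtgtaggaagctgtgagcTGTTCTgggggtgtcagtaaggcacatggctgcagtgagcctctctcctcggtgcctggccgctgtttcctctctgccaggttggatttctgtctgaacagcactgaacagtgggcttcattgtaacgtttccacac
Nags flank, chr11:102154348-102154647: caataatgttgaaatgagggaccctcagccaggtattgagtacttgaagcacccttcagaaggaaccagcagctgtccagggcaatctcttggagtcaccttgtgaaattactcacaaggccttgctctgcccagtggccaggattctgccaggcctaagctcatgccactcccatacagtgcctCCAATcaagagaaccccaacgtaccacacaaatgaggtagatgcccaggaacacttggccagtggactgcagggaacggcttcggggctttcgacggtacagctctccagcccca
Cps1 intron, chr1:67129236-67129535: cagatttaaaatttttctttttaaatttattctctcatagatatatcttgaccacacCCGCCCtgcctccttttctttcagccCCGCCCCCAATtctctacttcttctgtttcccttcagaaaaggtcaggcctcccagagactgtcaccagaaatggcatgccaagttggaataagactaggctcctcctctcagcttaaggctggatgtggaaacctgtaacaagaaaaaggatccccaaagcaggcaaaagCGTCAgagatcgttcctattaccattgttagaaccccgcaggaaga
The Arg1 flank held 2 glucocorticoid receptor cores, a C/EBP match and a CRE core, and 21.8%, 14.5% and 15.2% of the central 300 bases of 53144 regions held at least 1 match to each. The Nags flank held a CCAAT, found in 32% of them. The Cps1 intron held 2 GC boxes (at least 1 in 19.2%), a CCAAT that directly follows the second of them, and a CRE core (15.2%). A match here is only a match of letters.

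Within Cps1, differences between places along the gene were not tested. All 9 regions from the upstream flank to 10000 bp past the TSS had a log2 fold change above 0, from 0.21 to 0.89 with a median of 0.49, and from 0.26 to 1.02 with offsets on mean abundance. This stretch was chosen after its values were seen. DESeq2 called 3 of the 9 higher (4.96% of all regions), and edgeR called 0 (2.44%), with 7 of them at an unadjusted p under 0.05 (11.9%), counts from which nothing is read since the stretch was picked by its values. The intronic region 6360 bp past the TSS (chr1:67129190-67129582) held 4.35, 7.98 and 5.26 CPM in young and 11.9, 8.43, 9.11 and 14.8 CPM in aged samples. All aged samples were above all young ones. Its log2 fold change was 0.89 (SE 0.26, adjusted p 0.059 in edgeR and 0.023 in DESeq2). The region 6277 bp upstream of the TSS (chr1:67116242-67117256) held 22.8, 29.9 and 14.8 CPM in young and 32.1, 32.6, 35.3 and 35.6 CPM in aged liver. It too had no overlap between the ages, with a log2 fold change of 0.56 (SE 0.18, adjusted p 0.085 in edgeR and 0.048 in DESeq2). The 18 regions between the promoter and the midpoint of the gene body, 54117 bp from its start, had a median of 0.002 on the log2 scale and the 14 regions past the midpoint one of 0.13, with no call in either by edgeR.

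Past the midpoint, Cps1 varied more between samples of the same age than between the means of the ages. These regions summed to 298.6, 530.9 and 275.2 CPM in the young samples and to 503.2, 276.7, 339.9 and 546.8 CPM in the aged samples. Young replicate 2, aged replicate 1 and aged replicate 4 were high, and the other samples were low. Divided by the sum over the regions between the promoter and the midpoint, this gave 0.864, 1.29 and 0.676 in young and 0.998, 0.943, 0.811 and 1.149 in aged samples. Young replicate 2 was the highest young sample at 14 of these 14 regions, as it was at 30.2% of all regions. Aged replicate 1 or 4 was the highest aged sample at 14 of 14, as at 51.8% of all regions. This pattern was noticed in the data. Young replicate 2 was also the deepest young library (25461110 counts) and aged replicates 1 and 4 were the deepest aged libraries (11717992 and 8397956 counts), and the part of depth in the pattern was not tested.

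**Figure D4:**
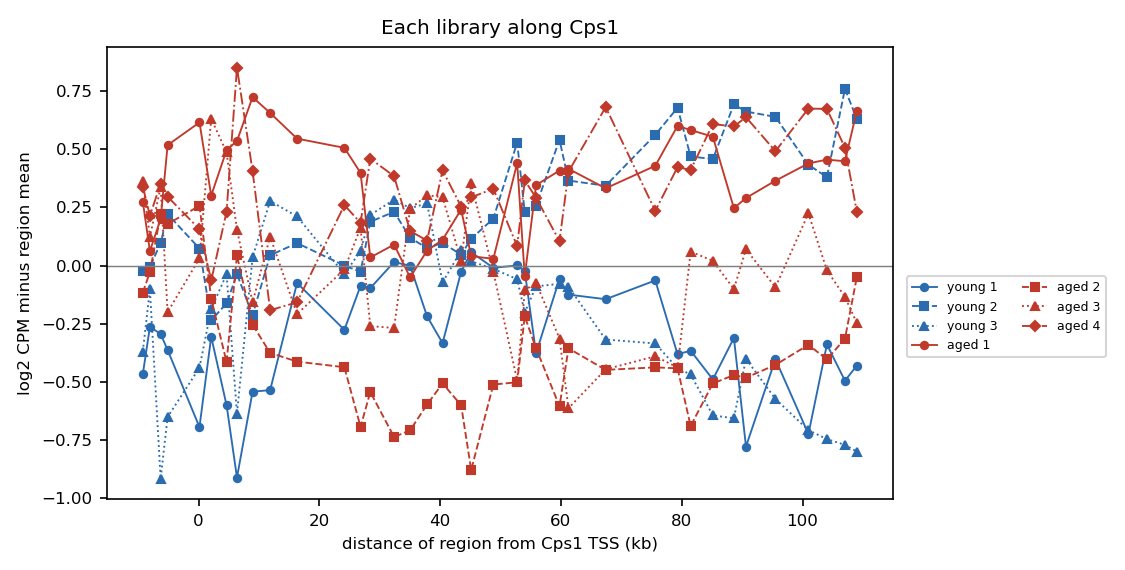
Log2 CPM of each library minus the mean of the 7 libraries at the 38 regions of Cps1, against distance from the TSS in kb, with young libraries in blue and aged libraries in red. Young replicates 1 and 3 hold most of the lowest values around the TSS, and past the middle of the gene young replicate 2 and aged replicates 1 and 4 lie above 0 while most values of the other 4 libraries lie below it.

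In Ass1, the 2 upstream regions had the largest differences. The region 10356 bp upstream (chr2:31458557-31461145), in the neighbouring gene Hmcn2, held 106.4, 121.0 and 85.5 CPM in young and 122.7, 124.7, 151.0 and 170.4 CPM in aged samples. All aged samples were above all young ones, with a log2 fold change of 0.44 (SE 0.15, adjusted p 0.085 in edgeR and 0.045 in DESeq2). The region 5945 bp upstream (chr2:31463258-31465266) held 90.3, 109.2 and 67.9 CPM in young and 107.6, 111.2, 127.5 and 167.0 CPM in aged samples. Aged replicate 1 lay just inside the young range, and the log2 fold change was 0.52 (SE 0.17, adjusted p 0.088 in edgeR and 0.045 in DESeq2). With offsets on mean abundance these log2 fold changes became 0.09 (adjusted p 0.74) and 0.18 (adjusted p 0.55). The 13 exonic and intronic regions lay around a median of 0.05 on the log2 scale, from −0.24 to 0.27. Across whole genes, young replicate 2 was the highest young sample at all 20 Ass1 regions and at all 7 Asl regions, but the lowest young sample at all 5 Nags and all 3 Rhbg regions, as at 28.05% of all regions. Aged replicate 2 was the lowest aged sample at 33 of 38 Cps1 regions (27.4% of all regions), and aged replicate 1 was the lowest aged sample at all 6 Arg1 regions, as it was at 19.99% of all regions.

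Regions of Glul and Rhbg, the genes of the hepatocytes around the central vein, all had a log2 fold change below 0. This held for 5 of 5 Glul regions, from −0.18 to −0.80, and 3 of 3 Rhbg regions, from −0.20 to −0.99, while 53.4% of all regions were below 0. With offsets on mean abundance 6 of the 8 were below 0, the upstream Glul region turned to 0.073 and the downstream Rhbg region to 0.016. None of the 8 passed the test in edgeR or DESeq2, which called 3.30% and 3.47% of all regions lower, and 2 were lower at an unadjusted p under 0.05, as were 12.7% of all regions. The region over the 3′ end of Glul (chr1:153909009-153911340) held 31.4, 37.0 and 34.7 CPM in young and 25.6, 24.7, 32.9 and 18.7 CPM in aged samples. Aged replicate 3 overlapped the young range, and the log2 fold change was −0.45 (SE 0.16, adjusted p 0.11). The Rhbg intronic region (chr3:88246064-88246345), with a log2 fold change of −0.99 (SE 0.45) and of −0.43 with these offsets, had as few as 2 counts in a library. Of the 27 regions in flanks, the 11 upstream had a median log2 fold change of 0.29, and 0.093 with these offsets. The 16 downstream had one of −0.42, and −0.374 with these offsets. The upstream ones include the Cps1 regions picked by their values, and most of the downstream ones lie nearest to a start of another gene. This split was not computed for other genes and was not tested.

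Summed over all regions of a gene, 2 of the 9 members had no overlap between the ages, 1 higher and 1 lower. Among 16231 protein-coding genes with regions by the same rule, every aged sum was above every young one in 18.8% and below in 8.88%. Glul summed to 106.4, 136.7 and 115.1 CPM in young and 93.1, 105.1, 103.0 and 77.0 CPM in aged liver. All aged sums were below all young sums, and the mean log2 difference was −0.34, with a two-sided exact permutation p of 0.0571, the smallest that the 35 splits of 3 against 4 samples allow. If the aged samples came from 3 animals, the smallest p that 3 against 3 allow in this exact test would be 0.1. Gls2 summed to 253.5, 246.4 and 209.3 CPM in young and 255.7, 276.7, 268.5 and 327.5 CPM in aged liver. All aged sums were above all young sums, by 0.25 on the log2 scale (two-sided exact permutation p 0.0571). The Gls2 sum includes the promoter region of the neighbouring gene Spryd4, with a mean of 57.4 CPM in young and 64.8 CPM in aged samples. With scaling to total counts the Gls2 difference was 0.135 (exact permutation p 0.29), that of Rhbg −0.406 (exact permutation p 0.0571), and that of Glul −0.457 (exact permutation p 0.0571). The same scaling gave 0.061 for Cps1 and 0.03 for Ass1, −0.05 for Otc, −0.127 for Asl, −0.16 for Nags and −0.28 for Arg1. In all, 9 sums were tested. The other members overlapped, with log2 differences of 0.18 for Cps1, 0.15 for Ass1, 0.07 for Otc, −0.01 for Asl, −0.04 for Nags, −0.16 for Arg1 and −0.29 for Rhbg, and exact permutation p-values from 0.11 to 1.0. The Cps1 value ranged from 0.077 without young replicate 1 to 0.355 without young replicate 2, and the Ass1 value from 0.014 without aged replicate 4 to 0.299 without young replicate 2.

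Bulk tissue does not separate fewer cells of a type from less accessible chromatin in each cell. All 5 hepatocyte markers (Alb, Apoa1, Ttr, Serpina1a and Hnf4a) had a promoter region, and these summed to 514.3 to 564.0 CPM in young and 627.8 to 734.0 CPM in aged samples. Of these, Apoa1 was called higher (log2 fold change 0.53, adjusted p 0.033), a call that ended with offsets on mean abundance (0.08, adjusted p 0.77). All 5 were above 0 on the log2 scale with a median of 0.255, and with these offsets 3 were below 0, with a median of −0.041. The sum of 3 of 5 stellate cell markers was 26.6 to 29.1 CPM in young and 16.1 to 23.5 CPM in aged samples. Most of this sum was Reln, with a mean of 18.7 CPM in young and 11.7 CPM in aged samples. With offsets on mean abundance the log2 fold change was −0.63 for Reln, −0.12 for Col1a1 and 0.075 for Lrat. The 3 of 5 endothelial markers with a region summed to 59.4 to 65.4 and 48.5 to 80.7 CPM, the 3 of 5 cholangiocyte markers to 43.8 to 52.0 and 39.4 to 56.9 CPM. Of the Kupffer cell list only Clec4f had a promoter region, at 0.588 to 2.80 CPM, and 0 of 5 lymphocyte markers had one. Their part in the results was not tested.

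A list of 22 genes of nitrogen transport and supply also took in Asns, which uses glutamine rather than supplying nitrogen to the cycle. Of the list, 19 had a promoter region, and edgeR called 0 of these higher and 1 lower, against 4.48% and 2.06% of all promoter regions. The call was Asns, asparagine synthetase, which makes asparagine from glutamine. Its promoter region (chr6:7691559-7693455) held 12.1, 11.2 and 15.3 CPM in young and 5.62, 6.28, 6.54 and 7.89 CPM in aged samples. All aged samples were below all young ones, with a log2 fold change of −0.95 (SE 0.21, adjusted p 0.020 in edgeR and 0.0051 in DESeq2). The call ended on leaving out any of young replicates 1, 2 and 3 or aged replicates 1 and 3 (adjusted p 0.055 to 0.074), and with offsets on mean abundance (0.064), while the log2 fold change lay between −1.05 and −0.81. DESeq2 also called 3 of the 19 higher, where it called 1544 of 15421 promoter regions higher and 12.2% in either direction. Glud1, glutamate dehydrogenase, held 132.8, 130.2 and 127.8 CPM in young and 173.8, 146.1, 167.4 and 176.4 CPM in aged samples, without overlap (log2 fold change 0.35, adjusted p 0.069 in edgeR and 0.018 in DESeq2). The alanine transaminases Gpt and Gpt2 had log2 fold changes of 0.40 and 0.33, with adjusted p of 0.068 and 0.091 in edgeR and 0.023 and 0.045 in DESeq2. With offsets on mean abundance these 3 were at −0.036 for Glud1, −0.0098 for Gpt and 0.0062 for Gpt2, and the call in that fit was Slc25a22, a mitochondrial glutamate carrier, which was lower (−0.45, adjusted p 0.040). Slc1a2, a glutamate transporter, had −0.74 (SE 0.30, adjusted p 0.15), and −0.48 with offsets on mean abundance. Its promoter region was weak, at 2.29 to 6.27 CPM, with as few as 12 counts in a library. Oat had 0.26 (SE 0.14, adjusted p 0.29), and 0.046 with offsets on mean abundance. The median of the 19 was 0.19, and −0.096 with these offsets.

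Among 12 regulators, including the transcription factors Cebpa, Cebpb, Hnf4a and Nr3c1 and members of the Wnt pathway, which sets the zones of the lobule, all had a promoter region, and 0 were called by edgeR or DESeq2, where edgeR called 4.48% of all promoter regions higher and 2.06% lower and DESeq2 12.2% in either direction. At an unadjusted p under 0.05 there were 2 of 12, against 32.1% of all promoter regions, namely Nr3c1, the glucocorticoid receptor (log2 fold change 0.30), and Hnf4a (0.25), which had −0.068 and −0.041 with offsets on mean abundance. Of the Wnt targets, Lgr5 had −0.41 (SE 0.20, adjusted p 0.23), Axin2 0.16 and Tbx3 0.23, and with these offsets Lgr5 had −0.49, Axin2 −0.035 and Tbx3 −0.063. The median of the 12 was 0.15, and −0.099 with these offsets.

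**Figure D5:**
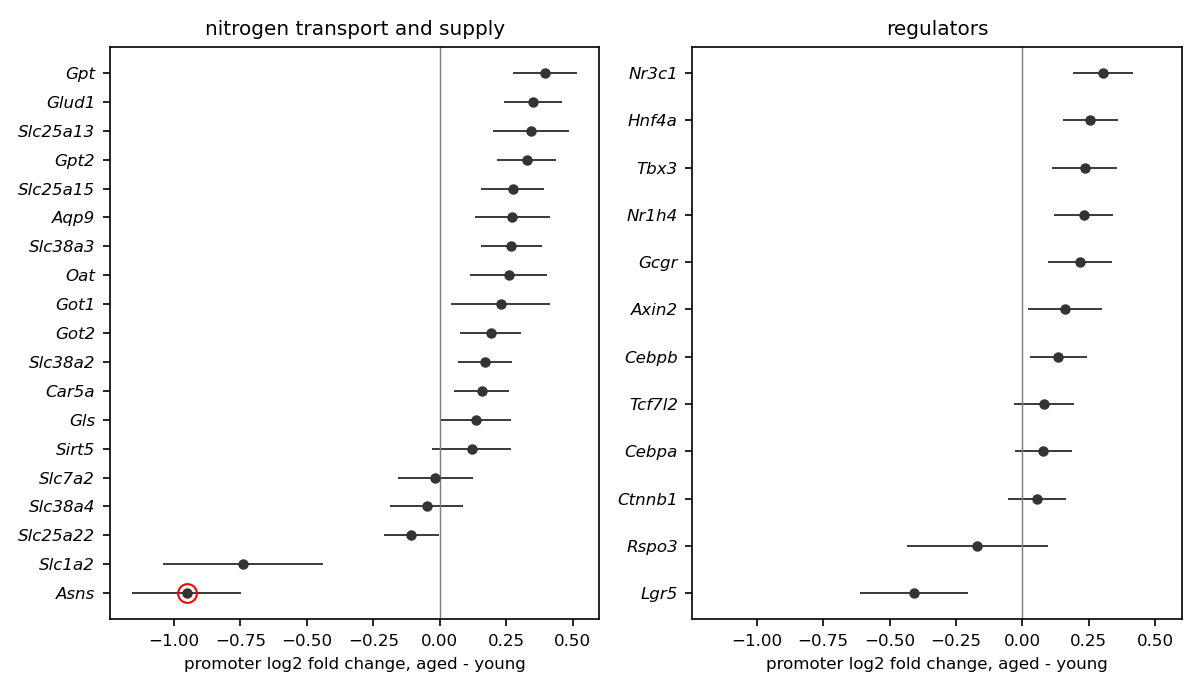
Log2 fold change (aged − young, with SE bars) of the promoter region of 19 genes of nitrogen transport and supply (left) and 12 regulators (right), with a red ring at an adjusted p under 0.05. Asns, at −0.95, is the ringed gene, and most others lie between 0 and 0.40, whereas with offsets on mean abundance 14 of the 19 and 11 of the 12 were below 0.

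By the smallest root mean square difference of centred log2 CPM over the 7 samples, the promoter regions most like that of Cps1 among 13004 protein-coding genes were those of Arid5b (0.15), Neu3 (0.17) and Pclo (0.17), against a median of 0.40. Those most like Glul were Trmt61a (0.07), Atr (0.08) and Bhlhe41 (0.08), against a median of 0.29.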

How the data were processed

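ATAC-seq libraries of 7 liver samples (Omni-ATAC on isolated nuclei) were analysed from raw counts that the authors deposited per consensus region, with no normalization. Per the labels and the study's methods, the authors trimmed reads with cutadapt 1.13, aligned them to GRCm38 with Bowtie2 2.4.1, removed duplicates, called peaks with MACS2 2.2.7 and counted reads with featureCounts over peaks shared by samples. Deposited columns without a sample numbered 0.

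Regions were fitted with edgeR 4.0.16 in R 4.3.3 (TMM, quasi-likelihood test) with age as the sole term over all regions. On simulated counts with known changes the fit was tested first. Log2 CPM used a prior count of 2. Alternatives were DESeq2 1.42.0, limma 3.58.1, total-count scaling, loess offsets (span 0.3), filters, left-out samples, summed aged pairs and a replicate block. Copies were sought with minimap2 2.31.

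All members have values of the promoter region in full, as do other member regions with an adjusted p under 0.05 and partner genes past the same threshold. The strongest region per kb of each gene is named, without sample values for Nags and Asl. The genes most like Cps1 and Glul were the 3 closest. Further regions were named after their values were seen. The members and lists were chosen with earlier results of these data known. Duplicated libraries were sought, and pairs of the same age differed by more than sampling noise. P-values measure the spread between these samples, and intervals are the log2 fold change ± 1.96 SE.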

Additional observations from a re-analysis of the deposited data

How the results depend on the processing

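No member region was called higher in the main fit, but 6 were under DESeq2 and 4 with offsets on GC content. There was 1 with aged replicates 2 and 4 summed and 1 with the replicate block. The Gls2 promoter was called with GC offsets (adjusted p 0.025) and the Cps1 promoter with the replicate block (adjusted p 0.043). Leaving out a sample gave 0 in each case. Over all regions, the fits with a higher call made, in the order given, 4691, 5654, 4742 and 4078 calls in either direction. Of those calls 58.8%, 64.0%, 45.6% and 36.4% were higher, against 42.5% of 3198 in the main fit. The 2 lower calls became 5 with the replicate block, 3 with total-count scaling and 1 with aged replicates 1 and 3 summed. They became 0 with offsets on mean abundance, at an adjusted p under 0.01, without flanks, or with only regions nearest to a TSS of a member. Over the samples left out they ranged from 0 to 2. The region next to the Nags call (chr11:102153346-102153784) was called with the replicate block (adjusted p 0.038) and with total-count scaling (adjusted p 0.037). Over all regions total-count scaling made 3474 calls, of which 15.6% were higher. For the partner promoters, 0 higher became 3 under DESeq2, 2 under limma, 6 with GC offsets and 2 with aged replicates 2 and 4 summed. It was 0 to 1 over the samples left out. The single lower call became 0 with aged replicates 1 and 3 summed and at 0.01, and 0 to 1 over the samples left out. Over all regions limma made 4580 calls, 48.0% of them higher, and the totals for DESeq2, GC offsets and that summed pair of 2 and 4 stand above. Replicate numbers share no animal, and same-numbered samples did not deviate together (correlations −0.12, 0.06 and 0.03), so the replicate block is given here only.

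Among single genes, the Asl promoter turned to −0.27 with abundance offsets and −0.0599 with total counts, and ranged from −0.0526 (without young replicate 1) to 0.196 over the samples left out. The Nags promoter turned to −0.0911 with abundance offsets. Total-count scaling gave 0.0696 for the Nags promoter, 0.152 for Arg1, 0.203 for Otc and 0.227 for Ass1. It gave 0.266 for the Gls2 promoter, 0.475 for Cps1 and −0.334 for Glul. Summed accessibility reversed over the samples left out for Otc (−0.012 without young replicate 3, up to 0.194), Asl (0.203 without young replicate 2, down to −0.153), Arg1 (0.006 without aged replicate 1, down to −0.292) and Nags (0.023 without young replicate 1, down to −0.134), and for Otc with total counts (−0.05). Scaling to total counts shifted the median change over all regions from −0.035 to −0.153. Over all regions, 3198 calls became 188 without young replicate 1, 446 without young replicate 2 and 2651 without young replicate 3. Leaving out aged replicates 1, 2, 3 and 4 in turn gave 402, 2898, 651 and 4230. With aged replicates 1 and 3 summed there were 962, with 2 and 3 summed 1806, and with 2 and 4 summed 4742. The total was 664 with abundance offsets, 1327 with at least 10 counts in every sample and 5654 with GC offsets. It was 4691 under DESeq2, 4580 under limma and 4078 with the replicate block. The share of calls that were higher was 42.5% in the main fit, against 15.6% with total counts, 58.8% under DESeq2 and 64.0% with GC offsets. Over the samples left out this share went from 27.0% (without aged replicate 3) to 50.2% (without aged replicate 2). The cause was not tested.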
